A study of Rattus norvegicus with 40 samples.

Results

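The potassium channel genes described here were the 90 protein-coding genes of the hippocampus table whose symbols begin with Kcn, without Kcne2, out of 25958 gene identifiers in the 4 tables together. Joined by gene identifier, 89 of them were used for amygdala and for anterior cortex (not Kcna10) and 88 for cerebellum (not Kcnj1 and Kcna3), and 87 were in all 4 tables. They comprised 15 inward rectifiers (Kcnj), 14 leak channels with paired pore domains (Kcnk), 10 silent modifier subunits (Kcnf, Kcng, Kcns, Kcnv) and 10 auxiliary subunits (Kcnab, Kcnip, Kcne). A further 12 were grouped with the calcium- or sodium-activated channels and their beta subunits (Kcnma, Kcnmb, Kcnn, Kcnt, Kcnu). This grouping went by symbol and not by how each channel is gated. The other voltage-gated genes were 8 of Kv1 (Kcna), 7 of Kv2 to Kv4 (Kcnb, Kcnc, Kcnd), 5 of Kv7 (Kcnq) and 8 EAG, ERG and ELK channels (Kcnh), and Kcnrg stood alone. The rule used symbols and no measured value, but the members were chosen with earlier results of these data known.

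RNA was sequenced from hippocampus, amygdala, anterior cortex and cerebellum of blast-exposed and of sham-exposed rats 12 months after exposure, with 5 libraries for each of the 8 groups. Strain, sex, age and the blast itself were not described in the labels used here. The labels did not say that libraries came from separate animals, so p-values measure the spread between libraries, which may be technical. In bulk tissue, fewer cells of a type and less RNA per cell cannot be told apart.

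Potassium channels let potassium ions cross the membrane along their electrochemical gradient, and in neurons they set the resting potential, repolarise the action potential and time repeated firing. Voltage-gated channels are assembled from pore subunits of 1 subfamily, modifier subunits that conduct only together with other pore subunits, and auxiliary subunits. Inward rectifiers and leak channels hold the resting potential, Kv3 channels are known for the short spikes of fast-firing neurons, Kv7 channels for the M-current, and calcium- and sodium-activated channels for afterhyperpolarisation.

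Library totals ran from 11268097 to 37128383 counts, and 79 to 88 of the potassium channel genes were detected in a library. Summed marker levels, in CPM (counts scaled to library size) on 1 scale for all 40 libraries, followed the region labels. The granule cell list was at 5236 to 5567 CPM in sham cerebellum and at most 186 CPM in the other sham libraries, and the cortical layer list at 417 to 657 CPM in sham anterior cortex and at most 308 CPM elsewhere. The hippocampus list was at 1059 to 1404 CPM in sham hippocampus with at most 650.5 CPM elsewhere, and the amygdala list at 866 to 968 CPM in sham amygdala with at most 696 CPM elsewhere. For the amygdala list this held for the sum and not for the mean log2 CPM of its 8 genes, which was 4.63 in sham amygdala, 4.75 in sham hippocampus and 4.46 in sham anterior cortex. The striatal list was also highest in sham anterior cortex, at 739 to 1105 CPM, with at most 702 CPM in the other sham libraries. Its part in the regional levels was not tested. Some libraries stood apart. In anterior cortex, blast library 8 and sham libraries 11, 13 and 15 had 16577 to 17845 genes detected, fewer than the other 6. In hippocampus, blast library 8, 1 more blast library and sham library 11 were high in choroid plexus genes, and sham library 14 had 0.295% of its counts in potassium channel genes, against 0.383% to 0.435% in the other 9.

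The starts of 4 genes are shown first because their regional levels, given further down, stood among the furthest apart: Kcnc1 and Kcng4 were high and Kcnj4 and Kcnf1 nearly absent in cerebellum. The lines give the 250 bases before the annotated start in RefSeq's GRCr8 assembly, 5′ to 3′ on the gene's strand, in lower case with GC boxes (GGGCGG, or CCGCCC on the other strand) in capitals.
Kcnc1, chr1:106038997-106039246, plus strand: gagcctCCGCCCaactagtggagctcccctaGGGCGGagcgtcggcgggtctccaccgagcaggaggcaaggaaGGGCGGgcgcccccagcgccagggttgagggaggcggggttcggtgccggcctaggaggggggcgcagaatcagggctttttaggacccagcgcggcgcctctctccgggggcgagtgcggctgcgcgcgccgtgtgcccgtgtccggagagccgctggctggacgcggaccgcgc
Kcng4, chr19:64597889-64598138, minus strand: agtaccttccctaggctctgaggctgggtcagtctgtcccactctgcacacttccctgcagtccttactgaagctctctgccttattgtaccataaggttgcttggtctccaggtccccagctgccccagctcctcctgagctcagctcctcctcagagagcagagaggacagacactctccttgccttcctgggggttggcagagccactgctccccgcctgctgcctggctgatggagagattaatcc
Kcnj4, chr7:112954548-112954797, minus strand: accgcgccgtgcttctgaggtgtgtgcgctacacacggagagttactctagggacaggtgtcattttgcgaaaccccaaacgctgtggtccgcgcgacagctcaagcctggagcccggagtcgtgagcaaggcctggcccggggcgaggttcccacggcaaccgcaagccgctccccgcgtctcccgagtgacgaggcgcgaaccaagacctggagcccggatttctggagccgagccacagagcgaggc
Kcnf1, chr6:45693707-45693956, minus strand: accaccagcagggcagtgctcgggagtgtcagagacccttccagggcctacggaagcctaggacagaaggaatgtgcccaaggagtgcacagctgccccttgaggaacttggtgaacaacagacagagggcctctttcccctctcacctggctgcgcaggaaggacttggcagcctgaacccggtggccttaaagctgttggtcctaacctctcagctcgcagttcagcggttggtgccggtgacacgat
The Kcnc1 window held 3 GC boxes and 74.4% G and C. The windows of Kcng4, Kcnj4 and Kcnf1 held no GC box, with 58.4%, 65.6% and 59.6% G and C. TATAAA and TGACGTCA, also searched on both strands, were in none of the 4 windows. Of the members, 61 symbols matched the RefSeq table with 67 starts, of which 49.3% had a GC box and 2.99% a TATAAA in this window, against 30.5% and 12.9% of all 33469 starts. TGACGTCA lay before 0 of the 67 and before 1.59% of all starts. A match is a string of letters and not a shown binding site.

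The first question was which potassium channel genes are used in which region, in sham animals. Of 79 members tested, 70 (88.6%) differed between the 4 regions, against 74.5% of all genes tested (edgeR's quasi-likelihood F test, Benjamini-Hochberg adjusted p under 0.05). Among hippocampus, amygdala and anterior cortex alone, 59 of 80 (73.8%) differed, against 38.7% of all genes. The median absolute log2 ratio of cerebellum over the mean of the other 3 regions was 1.53 over the members and 0.52 over all genes tested. For hippocampus these medians were 0.58 and 0.29, for amygdala 0.66 and 0.27, and for anterior cortex 0.69 and 0.36. Of the 70 members that differed, 28 were highest in anterior cortex, 20 in cerebellum, 17 in hippocampus and 5 in amygdala, and 37 were lowest in cerebellum. In the blast libraries 63 of the 70 had the same highest region.

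**Figure D1:**
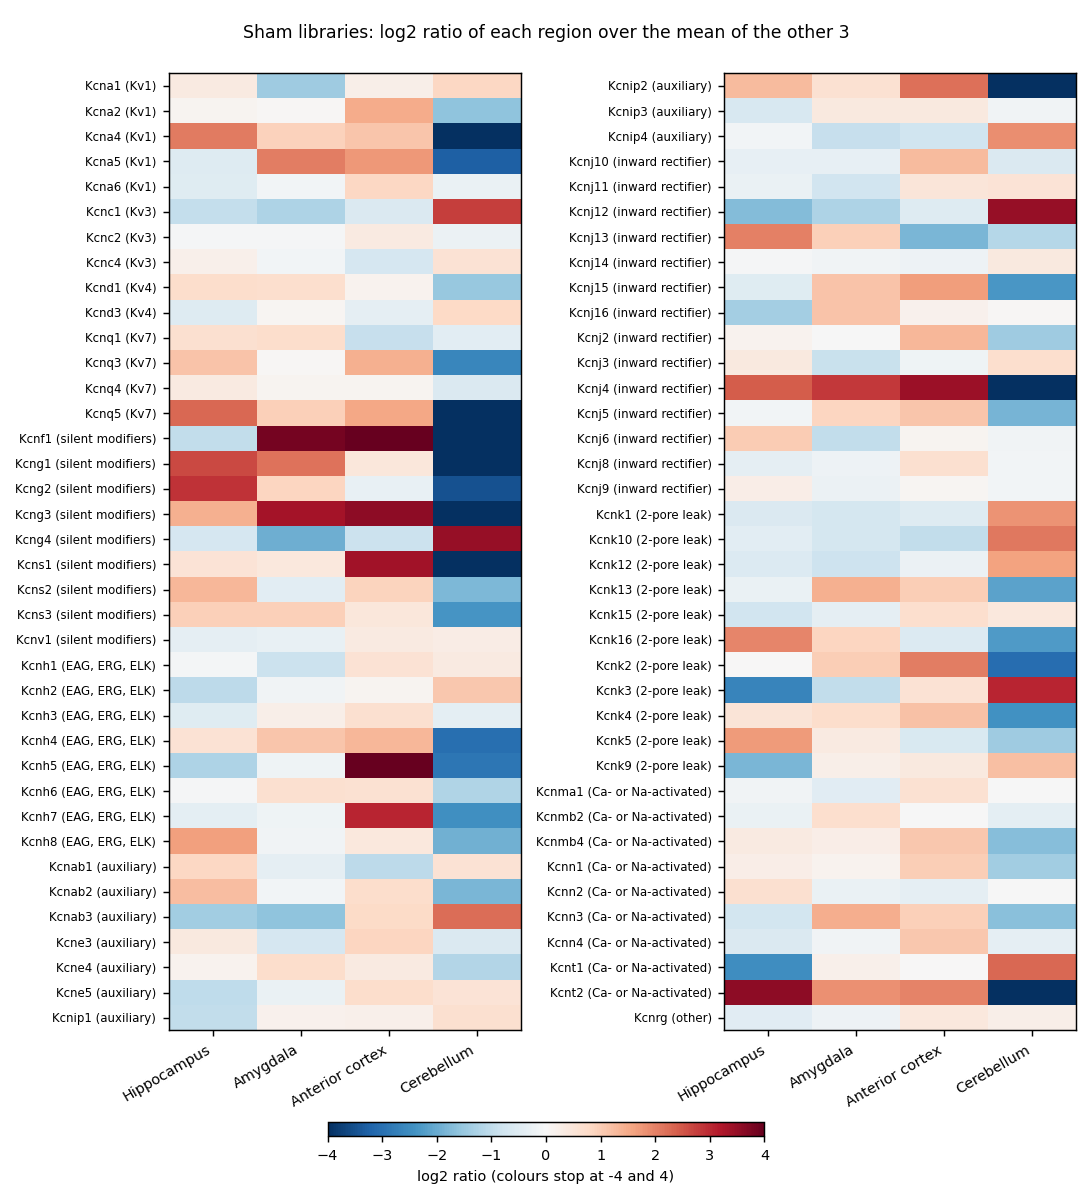
Log2 ratio of each region over the mean of the other 3 in sham libraries, for 76 of the 79 members tested, grouped by subfamily; red is higher and blue lower, and colours stop at -4 and 4. The darkest blue lies in cerebellum, with Kcnj4 at -8.67, and the darkest red in anterior cortex, with Kcnh5 at 4.30 and Kcnf1 at 4.21.

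Region by region, cerebellum was called higher than the mean of the other 3 for 25 members (31.6%, against 30.9% of all genes) and lower for 40 (50.6%, against 32.1%). Anterior cortex was higher for 42 (53.2%, against 24.5%) and lower for 10 (12.7%, against 22.9%). Hippocampus was higher for 25 (31.6%, against 19.3%) and lower for 23 (29.1%, against 17%). Amygdala was higher for 24 (30.4%, against 19.1%) and lower for 17 (21.5%, against 13.8%). Without sham anterior cortex libraries 11, 13 and 15 and hippocampus library 11, anterior cortex was higher for 32 of 80 members. The share of all genes in this smaller fit is not given here, so this count cannot be set against it. A gene nearly absent from cerebellum has a raised ratio in each forebrain region, so levels are given beside the ratios.

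Among the voltage-gated pore genes, the Kv3 gene Kcnc1 (ENSRNOG00000055401, chromosome 1, 102414625 to 102456411, plus strand, build not given in the sources used here), known from fast-spiking neurons, held 679, 708, 729, 779.7 and 854 CPM in cerebellum, against 80.7 to 124 CPM in hippocampus, 76.8 to 107 in amygdala and 100.3 to 167 in anterior cortex. Every cerebellum library lay above every forebrain library. The log2 ratio of cerebellum over the other 3 regions was 2.76 ± 0.10 (SE; edgeR adjusted p = 1.14e-15). The Kv3 genes Kcnc4 and Kcnc2 stood nearer to 0, at 0.58 ± 0.08 and -0.24 ± 0.10. Summed over a subfamily per length, in the deposited FPKM (fragments per kilobase of gene, scaled to library size), auxiliary subunits were at 468 ± 76.8 in sham hippocampus, 383 ± 26.7 in anterior cortex, 358 ± 15.1 in cerebellum and 315 ± 14.7 in amygdala (SD, n = 5 each, and 4 in amygdala, where 1 column was not used). Leak channels summed to 232 ± 12.998 FPKM in cerebellum, against 86.6 ± 6.09 in hippocampus, 108 ± 10.6 in amygdala and 131 ± 14.8 in anterior cortex.

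**Figure D2:**
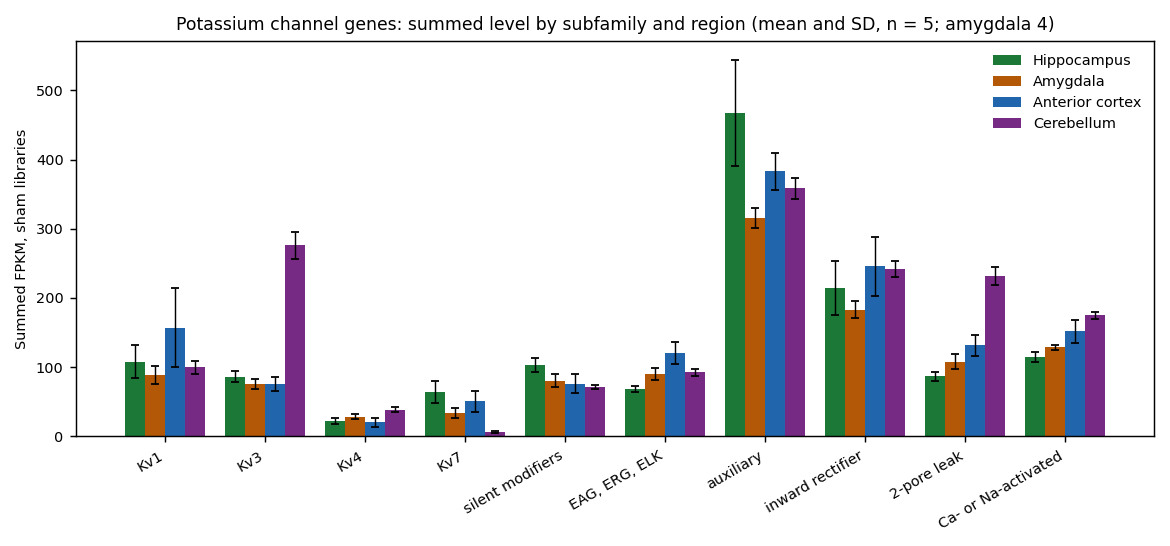
Summed deposited FPKM of the members of each subfamily in the sham libraries of each region; mean and SD over 5 libraries, and over 4 in amygdala. Sums leave out members not reported here. Leak channels in cerebellum sum to 232 FPKM, the highest of the 4 regions, and auxiliary subunits are the tallest group in each region.

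Genes of other subfamilies were raised in cerebellum as well. Kcng4, a modifier subunit, held 186, 199, 204, 208 and 234 CPM in the sham cerebellum libraries, against 11.2 to 28.5 CPM in the 15 forebrain libraries (log2 ratio 3.48 ± 0.09, edgeR adjusted p = 6.08e-18). Kcnj12, a strong inward rectifier, held 109 to 127 CPM in cerebellum and 6.46 to 19.99 CPM in the forebrain (3.47 ± 0.10). Kcnk3, an acid-sensitive leak channel, averaged 115 ± 13.1 CPM in cerebellum, 31.98 ± 9.52 in anterior cortex, 14.2 ± 1.67 in amygdala and 5.99 ± 1.43 in hippocampus, with no overlap between these 4 groups of libraries. Kcnt1, a sodium-activated channel, averaged 498 ± 18.95 CPM in cerebellum, 169 ± 9.55 in amygdala, 153 ± 24.6 in anterior cortex and 41.7 ± 4.68 in hippocampus, where amygdala and anterior cortex overlapped. Of 11 leak channels tested, 6 were called higher and 5 lower in cerebellum. Of 10 auxiliary subunits, 5 were higher and 3 lower.

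The 40 members lower in cerebellum included 7 of the 9 modifier subunits tested, 6 of 8 Kcnh genes and 4 of 5 Kv7 genes. Kcnj4 (ENSRNOG00000013869, chromosome 7, 120717375 to 120744602, minus strand), an inward rectifier of forebrain neurons, had 2 to 5 counts in a sham cerebellum library (0.122 to 0.3405 CPM), against 65.9 to 97.7 CPM in hippocampus, 73.7 to 116 in amygdala and 82.997 to 213 in anterior cortex. Kcng3, a modifier subunit, had 0 counts in the 5 sham cerebellum libraries and 2 in all over the 5 blast ones. With 3 counts a library as the floor, which is 0.201 CPM, it was at least 7.31-fold higher in hippocampus, 19.3-fold in amygdala and 22.4-fold in anterior cortex, counting error aside. Kcnf1 (ENSRNOG00000024310, chromosome 6, 42471066 to 42473738, minus strand), a modifier subunit, also separated the forebrain regions: its hippocampus libraries held 4.303, 5.07, 5.27, 5.52 and 5.796 CPM, against 47.3 to 78.4 CPM in amygdala, 59.6 to 98.2 in anterior cortex and 0 to 0.389 in cerebellum. Hippocampus did not overlap with amygdala or anterior cortex (edgeR adjusted p = 6.72e-10 over the 3 forebrain regions), and amygdala and anterior cortex overlapped.

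**Figure D3:**
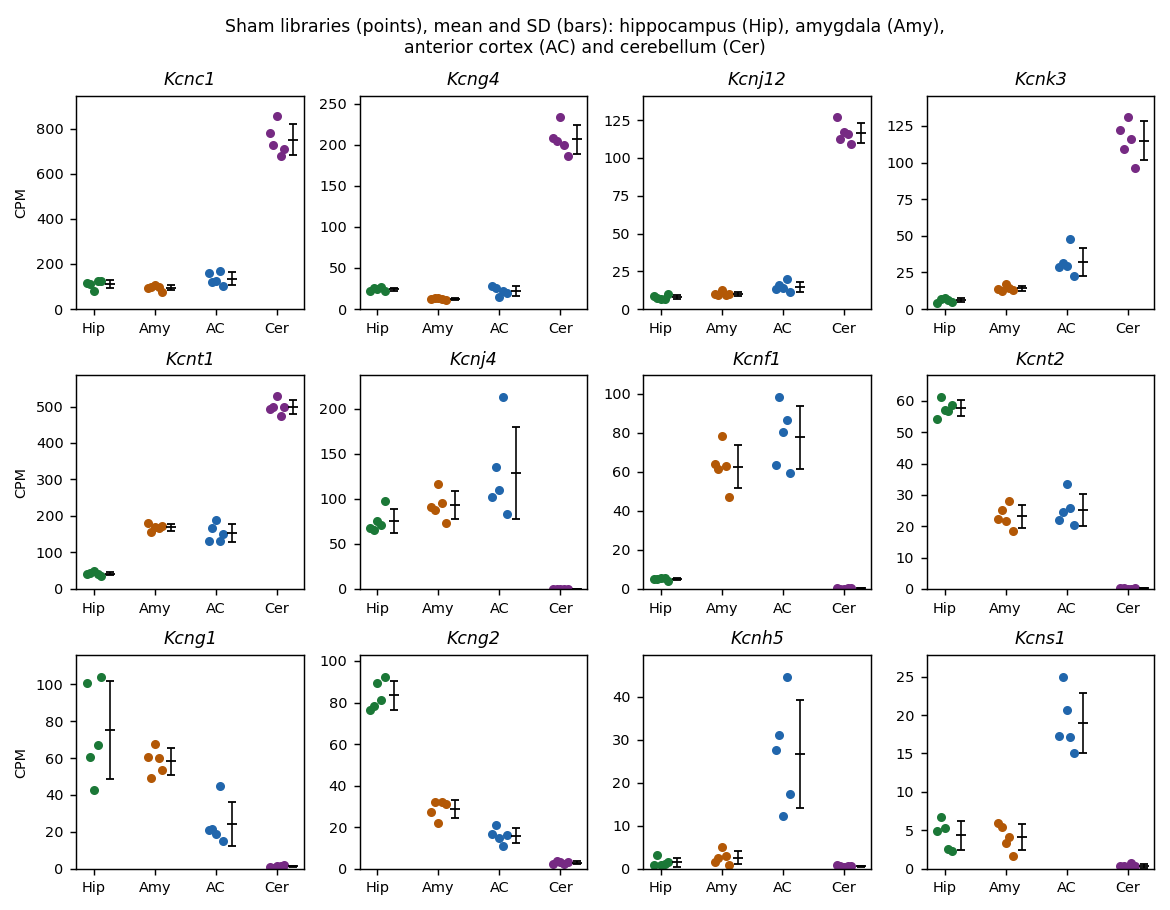
CPM of 12 named members in sham libraries of hippocampus, amygdala, anterior cortex and cerebellum; points are libraries and bars are mean and SD (n = 5). Kcnc1 and Kcng4 stand highest in cerebellum, and Kcnj4 and Kcnf1 are at or near 0 there.

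In hippocampus, Kcnt2, the sister gene of Kcnt1, held 54.4, 56.9, 57.03, 58.8 and 61.2 CPM, against 18.4 to 27.9 CPM in amygdala, 20.6 to 33.6 in anterior cortex and 0.0681 to 0.3903 in cerebellum (log2 ratio 3.56 ± 0.12, edgeR adjusted p = 3.8e-15). Kcnt1 went the other way, at -2.49 ± 0.09. Kcng2, a modifier subunit, held 76.4, 78.4, 80.997, 89.5 and 92.4 CPM in hippocampus, against 21.96 to 32.1 CPM in amygdala, 10.9 to 21.1 in anterior cortex and 2.53 to 3.85 in cerebellum (2.90 ± 0.11). Kcnt2 and Kcng2 were among 3 members whose hippocampus libraries all lay above the 15 others, and the share over all genes was not counted. The remaining one, Kcnn2, a small-conductance calcium-activated channel, held 22.1 to 31.4 CPM in hippocampus and 10.9 to 21.4 CPM elsewhere. Kcnq5, an M-current gene, averaged 191 ± 24.6 CPM in hippocampus, 131 ± 33.1 in anterior cortex, 94.3 ± 18.9 in amygdala and 4.79 ± 1.07 in cerebellum. Kcna4, an A-type pore gene, averaged 33.6 ± 3.57 CPM in hippocampus and 1.32 ± 0.166 in cerebellum. Kcng1 held 42.8 to 104 CPM in hippocampus and 49.4 to 67.8 in amygdala, which overlapped. Kcnk3 was the most negative call of hippocampus, at -2.63 ± 0.16.

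In anterior cortex, 6 of 8 Kcnh genes were called higher and 0 lower. Kcnh5, an EAG channel, held 12.3, 17.3, 27.7, 31.1 and 44.7 CPM there, against 0.477 to 4.97 CPM in the 15 other sham libraries (log2 ratio 4.30 ± 0.30, edgeR adjusted p = 4.01e-10). Kcnh7, an ERG channel, held 18.6 to 69.9 CPM there and at most 10.1 CPM elsewhere (3.03 ± 0.24). Kcns1, a modifier subunit, held 15.004 to 24.9 CPM there and at most 6.79 CPM elsewhere (3.35 ± 0.28). None of the 3 overlapped with another region. Without sham anterior cortex libraries 11, 13 and 15 and hippocampus library 11, the log2 ratios were 3.42, 2.18 and 3.27 for these genes, and each passed the test. Kcnab1, a beta subunit of Kv1 channels, had the most negative call of anterior cortex, at -1.05 ± 0.13.

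In amygdala no member had all 5 libraries above the 15 others, and here too the share over all genes was not counted. Kcna5, a Kv1 pore gene, held 4.405 to 8.9999 CPM in amygdala and 2.69 to 8.87 in anterior cortex, which overlapped, against 1.2998 to 2.01 CPM in hippocampus and 0.1295 to 0.859 in cerebellum. Kcng4 and Kcnab3, a further beta subunit, were the most negative calls of amygdala, at -1.94 ± 0.12 and -1.60 ± 0.25.

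Per length, Kcnab2, a beta subunit of Kv1 channels, was the highest member of all 3 forebrain regions. It averaged 317 ± 75.2 FPKM in hippocampus, 226 ± 30.5 in anterior cortex, 158 ± 17.5 in amygdala and 70.6 ± 5.18 in cerebellum. Other high members of hippocampus were the Kv1 pore gene Kcna2 (48.3 ± 9.88 FPKM) and the inward rectifier Kcnj9 (47.1 ± 5.28 FPKM). In amygdala Kcnip3, a calcium-binding partner of Kv4 channels, was next at 74.1 ± 2.39 FPKM, and the ELK channel Kcnh3 was at 56.9 ± 5.31. In anterior cortex the Kv1 pore gene Kcna2 averaged 91.5 ± 38.2 FPKM and the astrocyte inward rectifier Kcnj10 72.1 ± 13.5 FPKM. High members of cerebellum were Kcnc1 at 204 ± 15.4 FPKM, the Kv4 partner Kcnip4 at 118 ± 6.44, Kcnt1 at 115 ± 3.16 and the leak channel Kcnk1 at 103 ± 9.74. Kcna2 is listed at 11672 bases for the forebrain regions and at 2329 for cerebellum. At 11672 bases, its means of 416 CPM in sham anterior cortex and 202 CPM in sham hippocampus would give lower FPKM than those deposited. Its level per length, and its place among the high members, is therefore uncertain in each region.

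The second question was whether blast exposure had left a difference 12 months later. No potassium channel gene passed the adjusted threshold in any region, out of 78 tested in hippocampus, 79 in amygdala, 76 in anterior cortex and 65 in cerebellum (edgeR's quasi-likelihood test with Benjamini-Hochberg adjustment), and the share of all genes that passed was 0% in each region. At an unadjusted p under 0.05 there were 0 members in hippocampus (against 1.89% of all genes), 2 in amygdala (2.53%, against 8.68%), 5 in anterior cortex (6.58%, against 4.32%) and 4 in cerebellum (6.15%, against 4.62%). DESeq2 also called 0 members in each region. At an unadjusted p under 0.05 it had 0 in hippocampus, 3 in amygdala, 7 in anterior cortex and 3 in cerebellum. The shares of all genes at that p in DESeq2 are not given here, so these counts cannot be set against them. The authors' deposited tables called 0 members, with a smallest adjusted p of 0.263 for Kcnk2 in amygdala. In the authors' deposited table for amygdala 10 of the 89 members have an adjusted p, against 90 in that for hippocampus and 88 each in those for anterior cortex and cerebellum. The median log2 fold change of blast over sham was -0.03 over the members in hippocampus, -0.03 in amygdala, -0.14 in anterior cortex and -0.02 in cerebellum, and over all genes tested -0.0039, -0.001, -4.8e-05 and 0.0022 in the same order. In anterior cortex the median over the members turned to 0.12 without the 4 libraries with few genes detected. Within 0.5 of 0 on the log2 scale lay 74 members in hippocampus, 77 in amygdala, 70 in anterior cortex and 63 in cerebellum. The median SE of a member was 0.18 in hippocampus, 0.125 in amygdala, 0.226 in anterior cortex and 0.112 in cerebellum, and differences of that size were not detectable at this depth and number of libraries.

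**Figure D4:**
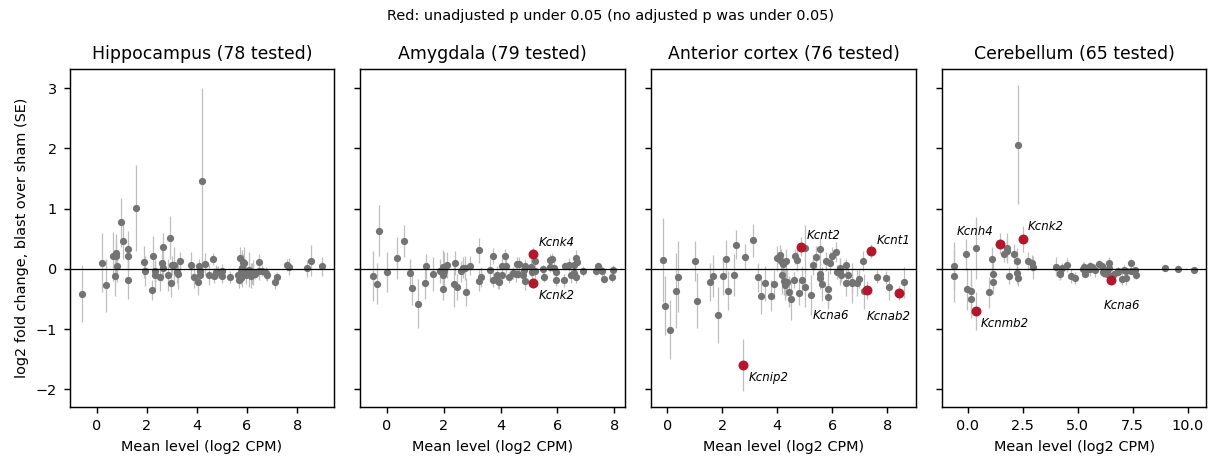
Log2 fold change of blast over sham for the members tested in each region against their mean level; bars are SE, and the red, named points have an unadjusted p under 0.05. Most members lie within 0.5 of 0, and the highest point in cerebellum is Kcnj13 at 2.07.

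In anterior cortex Kcnip2 (ENSRNOG00000050450, chromosome 1, 265549593 to 265573409, minus strand), a partner of A-type Kv4 channels, held 1.75, 2.66, 3.04, 4.14 and 4.998 CPM in blast libraries, against 4.16, 4.32, 9.07, 14.6 and 18.6 CPM in sham libraries. The groups overlapped at their inner ends. Its log2 fold change was -1.59 ± 0.44 (SE; edgeR unadjusted p = 0.00305, adjusted p = 0.799). A near-identical gene with its own identifier can take a share of the reads, and with the counts of both summed the value was -1.15 ± 0.44 (edgeR adjusted p = 0.799). By itself the other identifier stood at -0.38 ± 1.01 in anterior cortex, 0.11 ± 0.27 in hippocampus and 1.63 ± 0.61 in amygdala (edgeR adjusted p = 0.514 in amygdala). The cerebellum annotation names the identifier used here LOC100911951, so which of the 2 is Kcnip2 is uncertain. The striatal marker list summed to 596 to 967 CPM in blast and 739 to 1105 CPM in sham anterior cortex, and its part in the result was not tested.

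Kcnab2 (ENSRNOG00000011550, chromosome 5, 169572517 to 169658875, minus strand) held 269, 296, 296, 307 and 308 CPM in blast and 316, 352, 395, 409 and 479.9 CPM in sham anterior cortex. It was the 1 member there whose groups did not overlap, against 0.63% of all genes, with a log2 fold change of -0.40 ± 0.12 (edgeR unadjusted p = 0.00692, adjusted p = 0.799). In the other regions 0 members were free of overlap, against 0.286% of all genes in hippocampus, 1.52% in amygdala and 0.745% in cerebellum. Kcnab2 overlaps LOC500594 on the opposite strand, and whether counting used strand was not given in the sources used here. Kcna6, a Kv1 pore gene, held 116 to 140.3 CPM in blast and 137 to 228 CPM in sham libraries (-0.35 ± 0.15). Both sodium-activated channels lay on the other side of 0, with Kcnt1 at 187 ± 9.01 CPM in blast and 153 ± 24.6 in sham libraries (0.29 ± 0.12), and Kcnt2 at 32.6 ± 3.28 CPM in blast and 25.3 ± 5.09 in sham libraries (0.37 ± 0.15). Kcnk2, a mechanically gated leak channel, stood at -0.46 ± 0.21 (edgeR unadjusted p = 0.052). The highest 3 sham values of Kcnab2 and of Kcna6 came from the 3 sham libraries with few genes detected. Without these and blast library 8, the log2 fold changes were -1.60 for Kcnip2, -0.18 for Kcnab2, -0.07 for Kcna6, 0.16 for Kcnt1, 0.23 for Kcnt2 and 0.05 for Kcnk2, and 1 member (Kcnip2) in place of 5 had an unadjusted p under 0.05.

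**Figure D5:**
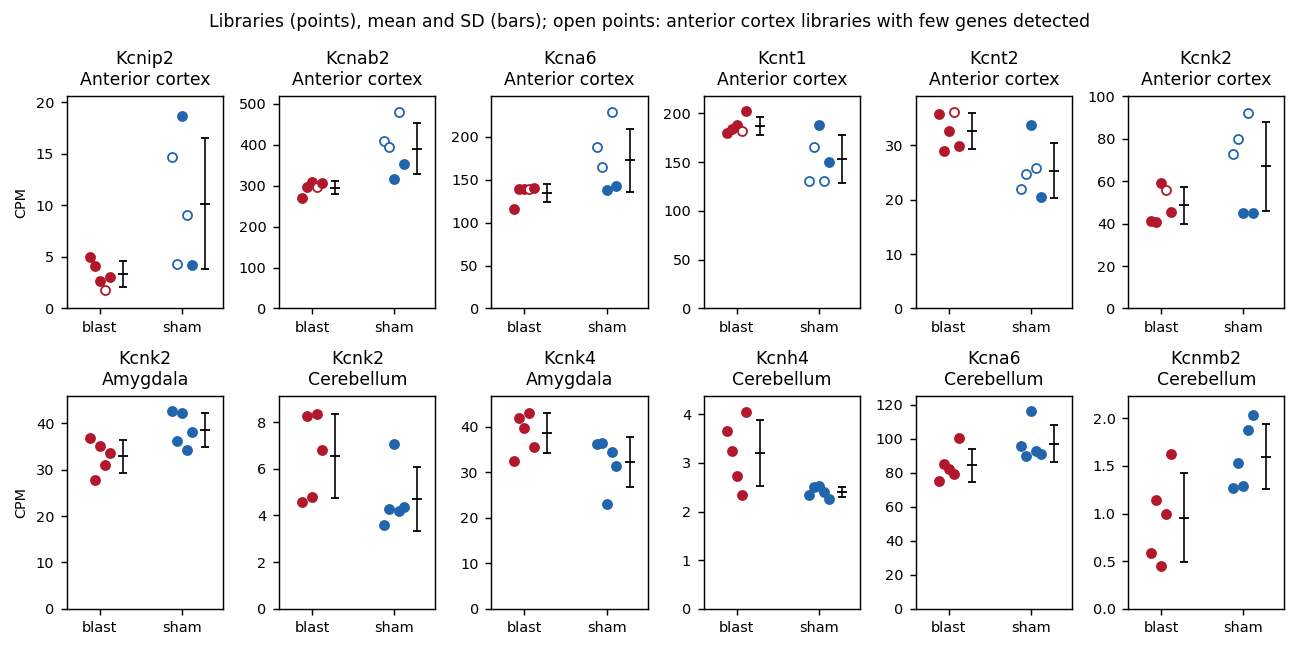
CPM by library, blast and sham, of members named in the comparison; points are libraries and bars are mean and SD (n = 5), and open points are anterior cortex libraries with few genes detected. Kcnab2 in anterior cortex is at 269 to 308 CPM in blast libraries, below the 316 to 479.9 CPM of sham libraries, and the groups of the other members overlap.

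In amygdala Kcnk2 (ENSRNOG00000002653, chromosome 13, 107690087 to 107886476, minus strand) held 27.7, 31.1, 33.6, 35.04 and 36.9 CPM in blast and 34.1, 36.2, 38.05, 42.1 and 42.6 CPM in sham libraries (-0.23 ± 0.09, edgeR unadjusted p = 0.0189, adjusted p = 0.517). Its relative Kcnk4 averaged 38.6 ± 4.45 CPM in blast and 32.4 ± 5.54 in sham libraries (0.25 ± 0.12, edgeR adjusted p = 0.57). The blast and sham libraries of both genes overlapped. Next by p were Kcnh3 and the A-type pore gene Kcnd1 among those lower, at -0.16 and -0.21, and Kcnn2, Kcnc4 and Kcnk1 among those higher, at 0.21, 0.11 and 0.17.

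In cerebellum Kcnk2 averaged 6.56 ± 1.802 CPM in blast and 4.71 ± 1.36 in sham libraries (0.50 ± 0.22). Kcnh4, an ELK channel, averaged 3.201 ± 0.685 CPM in blast and 2.41 ± 0.109 in sham libraries (0.42 ± 0.18). Kcna6 averaged 84.5 ± 9.64 CPM in blast and 97.3 ± 10.8 in sham libraries (-0.19 ± 0.08). Each of these overlapped between groups and had an adjusted p of 0.999 by edgeR, as did Kcnmb2, a beta subunit of the large-conductance calcium-activated channel (-0.70 ± 0.31). Kcnj13, an inward rectifier of choroid plexus epithelium, was furthest from 0 at 2.07 ± 0.99 (edgeR unadjusted p = 0.0577). It held 19.3 and 15.8 CPM in blast libraries 22 and 8 and 7.57 CPM in sham library 33, against 0.324 to 1.45 CPM in the other 7. The summed choroid plexus list, of which 12 of 13 genes were used in cerebellum, was at 2437 and 1902 CPM in the same blast libraries and 1117 CPM in the same sham library, against 43.98 to 122 CPM in the other 7, and its part in the result was not tested.

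In hippocampus the smallest p among members higher in blast was that of Kcnh5, with 2.51 ± 0.871 CPM in blast and 1.46 ± 0.985 in sham libraries (0.78 ± 0.41). Among those lower it was that of Kcnf1, with 3.304, 3.64, 3.91, 4.503 and 4.7998 CPM in blast and 4.303, 5.07, 5.27, 5.52 and 5.796 CPM in sham libraries (-0.35 ± 0.16, edgeR unadjusted p = 0.0533, adjusted p = 0.998). Both overlapped between groups. Kcnh3, Kcnip3 and Kcnip4 followed at -0.22, -0.16 and -0.19, and Kcng4, Kcnmb2 and the inward rectifier Kcnj2 at 0.16, 0.47 and 0.36. Kcnj13 held 59.3 and 71.2 CPM in 2 blast libraries and 46.1 CPM in sham library 11, and the Kv7 gene Kcnq1, in the same order, 7.15, 8.94 and 5.07 CPM, where the choroid plexus list stood at 7533, 8747 and 5266 CPM. In the other 7 hippocampus libraries Kcnj13 was at 0.0542 to 2.68 CPM and Kcnq1 at 0.758 to 1.82 CPM.

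Among all members tested, log2 fold changes of blast over sham were below 0 for 43 of 78 in hippocampus (55.1%, against 51% of all genes), 48 of 79 in amygdala (60.8%, against 50.3%), 50 of 76 in anterior cortex (65.8%, against 50%) and 35 of 65 in cerebellum (53.8%, against 48.9%). Without the 4 anterior cortex libraries with few genes detected, 22 of 80 were below 0 in anterior cortex. Without the 3 hippocampus libraries high in choroid plexus genes, 35 of 78 were below 0 in hippocampus. The share of all genes below 0 was not counted in these smaller fits. The 6 Kv1 genes tested in anterior cortex lay between -0.36 and -0.10 with all libraries and between -0.07 and 0.26 without those 4, where 1 was below 0. The 5 Kv7 genes tested in hippocampus lay between 0.01 and 1.01 with all libraries and between -0.02 and 0.41 without those 3. None of these genes passed the adjusted threshold, and members share their libraries.

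Whether the blast difference depended on region was tested over all 40 libraries. Of 79 members 0 passed the adjusted threshold, as did 0% of all genes, and 4 had an unadjusted p under 0.05 (5.06%, against 4.76% of all genes). They were Kcnip2 and Kcnt1, with an adjusted p by edgeR of 0.517 and 0.965, and Kcnk2 and Kcnh4 with larger ones. Kcnk2 stood at -0.09 in hippocampus, -0.23 in amygdala, -0.46 in anterior cortex and 0.50 in cerebellum. The Kcnip2 identifier behind that p stood at 0.52 in hippocampus, -0.33 in amygdala and -1.59 in anterior cortex, and was not tested in cerebellum alone. With both identifiers summed the values were 0.42, 0.21 and -1.15 in the same order, so amygdala turned sign, and 1.13 in cerebellum. The summed counts gave an interaction p of 0.0129 in place of 9.48e-05 (edgeR unadjusted; adjusted p = 1).

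For the mean blast effect over the 4 regions (limma voom), 0 of 79 members passed, against 0.00611% of all genes, and 6 had an unadjusted p under 0.05 (7.59%, against 8.35%). Kcnh3 had the smallest p, with a mean log2 fold change of -0.17 ± 0.06 (limma unadjusted p = 0.00487, adjusted p = 0.389). It was below 0 in each region, at -0.22 in hippocampus, -0.16 in amygdala, -0.15 in anterior cortex and -0.15 in cerebellum. Kcnh3 overlaps Spats2 on the same strand, so reads could be split or shared between them. Kcnip3 had a mean of -0.10 ± 0.04, Kcnab2 of -0.14 ± 0.06, and the leak channel Kcnk16, which averaged at most 2.67 CPM in any group, of 0.70 ± 0.29. By region Kcnk16 stood at 0.32 in hippocampus and 0.18 in amygdala. It was not tested alone in anterior cortex and cerebellum, where sham libraries averaged 0.56 and 0.23 CPM.

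Of 30 listed partner genes of the channels, 27 were tested between sham regions. Cerebellum was called higher for 12 (44.4%, against 30.9% of all genes) and lower for 9 (33.3%, against 32.1%), and anterior cortex higher for 13 (48.1%, against 24.5%) and lower for 5 (18.5%, against 22.9%). Hippocampus was called higher for 7 (25.9%, against 19.3%) and lower for 10 (37%, against 17%), and amygdala higher for 5 (18.5%, against 19.1%) and lower for 10 (37%, against 13.8%). Lrrc38, an auxiliary subunit of the large-conductance calcium-activated channel, averaged 16.6 ± 4.75 CPM in cerebellum and 0.497 to 1.77 CPM in the forebrain regions. Lgi1, a secreted protein found with Kv1 complexes, averaged 332 ± 49.2 CPM in hippocampus and 129 to 145 CPM elsewhere. Blast against sham, 0 partner genes passed in any region. In amygdala 4 of 26 (15.4%, against 8.68% of all genes) had an unadjusted p under 0.05, all 4 below 0: Abcc9 at -0.35, Dlg2 at -0.24, Dlg4 at -0.14 and Gnb1 at -0.17 (edgeR adjusted p from 0.517 to 0.558).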

How the data were processed

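RNA of 40 libraries was measured, 5 blast and 5 sham from each of 4 rat brain regions, in 1 deposited table per region. The deposited columns are, going by the file headers, unnormalised counts for each gene, FPKM values, gene lengths in bases, and their own log2 fold changes with p-values and adjusted p-values. Per the submitters' processing notes CASAVA was used; aligner, counting tool, genome build and strand use were not given in the sources used here. The deposited FPKM were checked in 1 blast library of each region. There they equal count over listed length and library total for 69.3% to 71.3% of genes with over 50 counts (tolerance 0.0001). For the rest the length used is not given. Among members with over 50 counts in these libraries the equality held for fewer, 36 of 62 in hippocampus and 37 of 62 in amygdala. In anterior cortex it held for 45 of 73 and in cerebellum for 28 of 49. The cerebellum table uses another annotation: 600 of 21649 identifiers shared with hippocampus differ in length, among them 2 members. In name 4045 differ, among them the identifier used for Kcnip2. A further 41 per-sample columns were not used.

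From the counts, genes with low counts were removed (filterByExpr), libraries were scaled by TMM, and blast was tested against sham in each region with edgeR 4.0.16 (quasi-likelihood, R 4.3.3), with Benjamini-Hochberg adjustment over all genes tested and a threshold of 0.05. Sham regions were tested in 1 fit of 20 libraries over genes in all 4 tables, each region against the mean of the other 3. The interaction of region and treatment used edgeR over 40 libraries, and the mean blast effect limma 3.58.1 voom with the library number as a random block. Alternatives were DESeq2 1.42.0, voom, RLE size factors, no filter, a replicate block and leaving out libraries. The scripts were tested on simulated data. CPM use 1 TMM scale for all libraries; levels of different genes are set side by side only as FPKM. Depth differed up to 11268097 against 37128383 counts, and counts under about 10 per library are imprecise; floors and bounds cover counting error only.

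One amygdala sham column is numbered 13 where the title has 12, and it was used by its group only, for counts and not for FPKM. Results of 3 members are not reported here, though the counts over members include them, and summed FPKM leave them out. The members and lists were chosen with earlier results of these data known. Genes were named by rule: per region the 4 smallest p on each side for blast, the 6 highest and 2 lowest called ratios for sham regions, the 8 highest FPKM, and the 4 smallest p of the interaction and of the mean effect; Kcnc2, Kcnc4, Kcnn2, Kcnq1 and the partner genes named were chosen after their values were seen.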

Additional observations from a re-analysis of the deposited data

Results flagged for a closer look

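Within groups of 5 libraries, 8 of the 109 groups looked at for named members had 1 library far from the other 4 (a gap to its nearest neighbour over 0.71 of the group's range). Chance alone would give about 5% of such groups. Kcnmb2 in hippocampus sham library 33 was low at 0.745 CPM, with the next library at 1.895 CPM (gap of 0.874 of the range). Kcna6 in anterior cortex blast library 22 was low at 116 CPM, with the next library at 139 CPM (gap of 0.946 of the range). Kcnk2 in cerebellum sham library 14 was high at 7.08 CPM, with the next library at 4.37 CPM (gap of 0.78 of the range). Kcnj13 in cerebellum sham library 33 was high at 7.57 CPM, with the next library at 0.749 CPM (gap of 0.941 of the range). Kcna6 in cerebellum sham library 14 was high at 116 CPM, with the next library at 95.9 CPM (gap of 0.769 of the range). Kcnmb4 in hippocampus sham library 14 was high at 76.7 CPM, with the next library at 54.6 CPM (gap of 0.748 of the range). Kcnh3 in anterior cortex sham library 13 was high at 320.4 CPM, with the next library at 262 CPM (gap of 0.715 of the range). Kcnmb4 in anterior cortex sham library 14 was high at 91.7 CPM, with the next library at 81.1 CPM (gap of 0.764 of the range). The high Kcnj13 library is the cerebellum sham library that was also high in choroid plexus genes.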

How the results depend on the processing

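The count of members that differed between blast and sham was 0 in every region, in the interaction and in the mean effect under each alternative run, leaving out 1 library or number included (0 to 0). DESeq2 called 1 gene of any kind in hippocampus, 9 in amygdala, 0 in anterior cortex and 5 in cerebellum, none of them a member. Of the log2 fold changes of named members, 3 changed sign, none of them a call, and the cause was not tested: Kcnk2 in anterior cortex was 0.045 without the 4 libraries with few genes detected, Kcnip2 in amygdala was 0.21 with both identifiers summed, and Kcnk2 in hippocampus, at -0.09, was 0.0083 without 1 blast library and 0.037 without sham library 14 (-0.20 to 0.037 over leaving out 1 library at a time).

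Between sham regions, leaving out 1 library at a time gave 68 to 73 members by the test over 4 regions, 53 to 58 over the forebrain, 46 to 49 for hippocampus, 36 to 43 for amygdala, 50 to 54 for anterior cortex and 59 to 65 for cerebellum. Without sham anterior cortex libraries 11, 13 and 15 and hippocampus library 11, an alternative chosen after seeing the data, the counts were 71, 47, 45, 41, 43 and 63 in the same order. With the replicate block they were 70, 49, 47, 38, 52 and 65. The shares of all genes called in these alternative fits are not given here, so these counts cannot be set against them. The labels do not say what a title number stands for. Deviations of same-numbered libraries correlated over 0.1 in 11 of 30 blast pairs and 8 of 27 sham pairs, against 11 of 120 and 13 of 123 pairs of unlike number. Not every same-numbered pair did, but single pairs are noisy, so this does not decide what the numbers stand for. The main fits of sham regions and of the interaction did not take the numbers as pairing. Some same-numbered libraries may share a source, and those fits would then treat related libraries as independent. The cause of the lower forebrain count under the block was not tested. For the interaction, the replicate block in limma voom gave 0 members, and the mean effect without a block gave 0.

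Limits: 5 libraries a group and median standard errors of 0.112 to 0.226 leave small blast differences undetected, and the 0 to 6 counts a library of Kcnj4, Kcng3, Kcnf1 and Kcnt2 in sham cerebellum fix their ratios only loosely. Levels per length rest on the authors' gene lengths. Taken instead as counts per kilobase of the listed length, 19 of the levels named by rule moved by at least the SD of their FPKM, and 13 did not. The order of members by FPKM is therefore uncertain.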
